A study of Homo sapiens with 24 samples.

Results

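The genes described here are 7 genes that are mainly expressed in germ cells in healthy tissue: the melanoma antigen (MAGE) genes MAGEC2, MAGEC1, MAGEA1, MAGEA4 and MAGEA10, the gametocyte-specific factor gene GTSF1, and COX7B2, a cytochrome c oxidase subunit gene. They hold 12 of the 47323 probes on the arrays. The genes were picked from differences between groups in these same data, so their values and differences are given as a description, with standard errors and no p-values. RNA came from SKBR3 cells, an established human breast cancer line in which ERBB2, encoding the receptor HER2, is amplified, and was read on 24 Illumina arrays, 6 per group. Control cells were compared with cells depleted of PMCA2 (a plasma membrane calcium pump encoded by ATP2B2), of NHERF1 (a PDZ scaffold protein) or of HER2. The labels give infection with shRNA lentiviral particles for 48 h as the treatment of all 4 groups, and name no hairpin for the control and no hairpin sequence for the knockdowns. They name no separate cultures, so standard errors and p-values measure variation among arrays alone, and that variation may be technical. All groups share 1 cell line, and the 3 knockdowns share the same control arrays.

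MAGE genes of the A and C subfamilies lie on the X chromosome and are cancer-testis genes: they are silent in most somatic tissues, where methylated CpG sites in their promoters help to keep them off, and are active in germ cells of the testis and in many tumours. Their proteins share a MAGE homology domain that binds RING-type ubiquitin ligases, as MAGEC2 binds TRIM28. GTSF1 is a small zinc finger protein that acts with PIWI proteins in the piRNA pathway, which silences transposons in the germ line, as shown in mouse and fly. COX7B2 is a testis-expressed relative of COX7B, a subunit of the last complex of the mitochondrial respiratory chain.

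Promoter sequences were taken from the RefSeq table of build GRCh38.p14, which holds 5 of the 7 genes. The 180 bases shown run from 150 bases before to 30 bases after the annotated start, 5′ to 3′ on the gene's strand. They are shown so that the stretch around the start of the 2 MAGEC genes, of which MAGEC2 was measured above background and MAGEC1 was not, can be read side by side, and next to the promoters of GTSF1 and COX7B2. Capitals mark matches on either strand to CCGGANGT, a core bound by ETS factors, and to GCCATCTT, a core bound by YY1. Both motifs were chosen after the sequences had been seen, and their matches did not overlap each other.
MAGEC2, chrX:142205261-142205440, minus strand: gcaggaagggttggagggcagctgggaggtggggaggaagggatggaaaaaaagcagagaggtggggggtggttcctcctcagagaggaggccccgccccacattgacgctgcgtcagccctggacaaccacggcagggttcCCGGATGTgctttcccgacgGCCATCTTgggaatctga
MAGEC1, chrX:141903744-141903923, plus strand: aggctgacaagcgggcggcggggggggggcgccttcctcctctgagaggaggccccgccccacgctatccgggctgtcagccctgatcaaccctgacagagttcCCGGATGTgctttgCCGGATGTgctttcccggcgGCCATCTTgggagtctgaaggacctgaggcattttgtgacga
GTSF1, chr12:54473573-54473752, minus strand: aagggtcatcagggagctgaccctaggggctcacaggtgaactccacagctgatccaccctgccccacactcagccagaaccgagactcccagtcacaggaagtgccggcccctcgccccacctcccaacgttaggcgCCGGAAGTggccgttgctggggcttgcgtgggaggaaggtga
COX7B2, chr4:46909216-46909395, minus strand: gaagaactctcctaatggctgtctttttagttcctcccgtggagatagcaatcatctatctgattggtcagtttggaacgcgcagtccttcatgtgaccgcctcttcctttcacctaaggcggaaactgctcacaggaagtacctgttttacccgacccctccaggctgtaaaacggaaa

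The promoters of MAGEC2 and MAGEC1 matched at 212 of 248 aligned positions, an identity of 85.5%. In the windows of 300 bases that the table gives (250 before and 50 after the start), CCGGANGT occurred once for MAGEC2, with its first base at position -8 from the start, and 2 times for MAGEC1, at -46 and -32. GCCATCTT began at 12 in MAGEC2 and at -12 in MAGEC1. GTSF1 held CCGGANGT at -12, each of the 5 annotated MAGEA4 starts held it once, and COX7B2 held neither motif. Among all 35116 promoter windows of the same length, CCGGANGT was found in 6.06% and GCCATCTT in 2.89%. The windows held 10 CpG sites for MAGEC2, 14 for MAGEC1, 10 for GTSF1 and 8 for COX7B2, beside a median of 14 over all windows. Only these exact patterns were searched, so a window without a match, as for COX7B2, may hold other forms of the same sites. A match is a description of the letters only, and no binding or methylation was measured here.

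The deposited values are intensities on a linear scale that include background, so a floor was needed to say which genes were measured at all. It was set at 105.98, the 95th percentile of the 433 probes of olfactory receptor genes, which are taken as silent in this line, and their median was 96.91. Groups were compared on the log2 scale after background subtraction. A gene was tested when a probe was above the floor on at least 6 of the 24 arrays, which held for 12468 genes and for 5 of the 7 genes described here. MAGEC1 and MAGEA4 did not pass. A gene was called when its adjusted p in limma, over all tested genes, was below 0.05. Of the targets, the brightest ERBB2 probe had 53.3% of the control level in the HER2, 50.9% in the PMCA2 and 31.5% in the NHERF1 knockdown. NHERF1 had 8.1% of control in its own knockdown, 54.1% in the PMCA2 knockdown and 62.9% in the HER2 knockdown. The 3 ATP2B2 probes were at background in every group, with 1 array above the floor, so the label of the PMCA2 knockdown could not be checked. The sample titles hold a number code and a letter, which were read here as chip and position. By this reading each group has 3 arrays on each of 2 chips, at positions used by no other group, so position and group cannot be told apart. In RNA from whole cultures, fewer cells that express a gene and less RNA per cell cannot be told apart either.

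The genes were detected in different sets of groups. In control cells 5 of the 7 had a probe above the floor on all 6 arrays: MAGEC2, MAGEA1, MAGEA10, GTSF1 and COX7B2. In the PMCA2 knockdown only MAGEC2 did, in the NHERF1 knockdown MAGEC2, MAGEA10, GTSF1 and COX7B2 did, and in the HER2 knockdown MAGEC2, GTSF1 and COX7B2 did. In the PMCA2 knockdown MAGEC2 was close to the floor, and its count of 1 gene became 2 with the floor at the 90th percentile and 0 at the 99th. The count of 4 genes in the NHERF1 knockdown became 3 at the 99th percentile, where MAGEA10 passed on some arrays only.

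MAGEC2 had its highest values in the NHERF1 knockdown and its lowest in the PMCA2 knockdown. On the brighter of its 2 probes the intensity (lowest, median, highest of 6 arrays) was 644, 685 and 759 in control cells, and 980.1, 1007 and 1059 in the NHERF1 knockdown. It was 186, 192 and 202 in the HER2 knockdown, and 111, 117 and 119 in the PMCA2 knockdown. No 2 groups overlapped. The PMCA2 knockdown was lowest, with all 6 arrays just above the floor. The means were 690 ± 38.3 (SD, n = 6) in control cells, 1013 ± 33.9 in the NHERF1, 194 ± 6.28 in the HER2 and 116 ± 3.19 in the PMCA2 knockdown, so the gaps between groups exceeded the spread within them. The dimmer probe gave the same order of medians, with 366 in the NHERF1 knockdown, 241 in control, 126 in the HER2 knockdown and 105 in the PMCA2 knockdown, where only 2 arrays passed the floor.

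After background subtraction MAGEC2 differed from control by a log2 of -4.16 ± 0.06 (SE, 6 arrays per group) in the PMCA2 knockdown, a level 17.9-fold lower. The difference was -2.44 ± 0.06 in the HER2 knockdown (5.42-fold lower) and 0.62 ± 0.06 in the NHERF1 knockdown (1.53-fold higher). These sizes depend on how much background is subtracted: without subtraction they were -2.58, -1.83 and 0.56. The direction was the same in each case. The dimmer probe gave -2.56 and -1.85 for the PMCA2 and HER2 knockdowns. Between knockdowns, MAGEC2 was 27.5-fold lower after PMCA2 than after NHERF1 depletion and 8.3-fold higher after NHERF1 than after HER2 depletion. The dimmer probe gave 10.5-fold and 6.41-fold, with 2 arrays of the PMCA2 knockdown above the floor. These folds are of background-subtracted values too.

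MAGEC1, the neighbour and close relative of MAGEC2 on the X chromosome, was at background. Neither of its 2 probes passed the floor on any of the 24 arrays, with values between 91.25 and 105.6. Probe sequences were not used here, so whether these probes detect the transcript was not checked. The other genes next to the pair that have a probe (MAGEC3, SPANXD, SPANXN3 and SPANXN4) did not reach 6 arrays above the floor either.

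MAGEA1 was above background in control cells and close to it in all knockdowns. Its brighter probe read 165, 177 and 179.7 (lowest, median, highest) in control cells, 104, 107 and 109 in the PMCA2 knockdown and 103, 111 and 112 in the NHERF1 knockdown. In the HER2 knockdown it read 95.9, 101 and 105, below the floor on every array. The control arrays lay above all others, while the PMCA2 and NHERF1 knockdowns overlapped each other and the HER2 knockdown. Below control by log2 values of -1.84 ± 0.07 and -1.69 ± 0.07, the level was 3.59-fold lower in the PMCA2 and 3.24-fold lower in the NHERF1 knockdown. In the HER2 knockdown it was at least 3.71-fold lower, a bound because the lower group is below the floor. This and the other at-least folds hold for background-subtracted values only. The dimmer probe gave another order of the knockdowns: its medians were 121 in control, 111 in the NHERF1, 108 in the HER2 and 104 in the PMCA2 knockdown, and it passed the floor on 5 arrays of the HER2, 4 of the NHERF1 and 3 of the PMCA2 knockdown. Which knockdown was lowest, and whether MAGEA1 was detected in the HER2 knockdown, thus depended on the probe. The dimmer probe also gave smaller differences from control of -0.66, -0.45 and -0.50 after depletion of PMCA2, NHERF1 and HER2, and without background subtraction the brighter one gave -0.71, -0.67 and -0.79.

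MAGEA10 was above the floor in control cells and in the NHERF1 knockdown. Its brighter probe read 124, 132 and 137 in control, 108, 111 and 118 in the NHERF1 knockdown, 96.9, 98.05 and 107 in the HER2 knockdown, and 90.4, 93.55 and 94.7 in the PMCA2 knockdown. The control and NHERF1 groups were above the floor on all arrays and did not overlap, the HER2 group passed on 1 array and the PMCA2 group on none. The level was 1.6-fold lower in the NHERF1 knockdown (log2 -0.68 ± 0.08), at least 1.95-fold lower in the PMCA2 knockdown and at least 1.93-fold lower in the HER2 knockdown. Without background subtraction the log2 differences were -0.49, -0.22 and -0.38 after depletion of PMCA2, NHERF1 and HER2, so none reached 2-fold. On chip 1 and chip 2 the NHERF1 difference was -0.48 and -0.88. Its second probe was below the floor on all 24 arrays. MAGEA4 was near the floor throughout: each of its 2 probes passed on at most 1 array of a group, and the highest value was 106.7.

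GTSF1 was high in 3 groups and at background in the PMCA2 knockdown. Its single probe read 1052, 1109.6 and 1217 (lowest, median, highest) in control cells, 745, 818 and 922 in the NHERF1 knockdown, and 1176, 1413 and 1477 in the HER2 knockdown. In the PMCA2 knockdown it read 97.7, 100.2 and 102, below the floor on all 6 arrays. The control and HER2 groups overlapped, and the other pairs of groups did not. GTSF1 was at least 41.5-fold lower in the PMCA2 knockdown than in control, at least 50.8-fold lower than in the HER2 knockdown and at least 29.6-fold lower than in the NHERF1 knockdown. Against control it was 1.4-fold lower in the NHERF1 knockdown (log2 -0.48 ± 0.06) and 1.23-fold higher in the HER2 knockdown (log2 0.29 ± 0.06). Without background subtraction the differences from control were -3.49, -0.44 and 0.28 after depletion of PMCA2, NHERF1 and HER2.

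COX7B2 showed the same order of groups as MAGEC2. Its single probe read 643, 698 and 738 in the NHERF1 knockdown, 407, 458 and 488 in control cells and 219.9, 238 and 245 in the HER2 knockdown. In the PMCA2 knockdown it read 90.4, 94.2 and 97.45, below the floor on all arrays, and no 2 groups overlapped. It was at least 14.8-fold lower in the PMCA2 knockdown than in control, 2.41-fold lower in the HER2 knockdown (log2 -1.27 ± 0.05) and 1.65-fold higher in the NHERF1 knockdown (log2 0.72 ± 0.05). Between knockdowns it was at least 6.14-fold lower after PMCA2 than after HER2 depletion and 3.98-fold higher after NHERF1 than after HER2 depletion. Without background subtraction its differences from control were -2.27, 0.62 and -0.94 after depletion of PMCA2, NHERF1 and HER2.

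**Figure D1:**
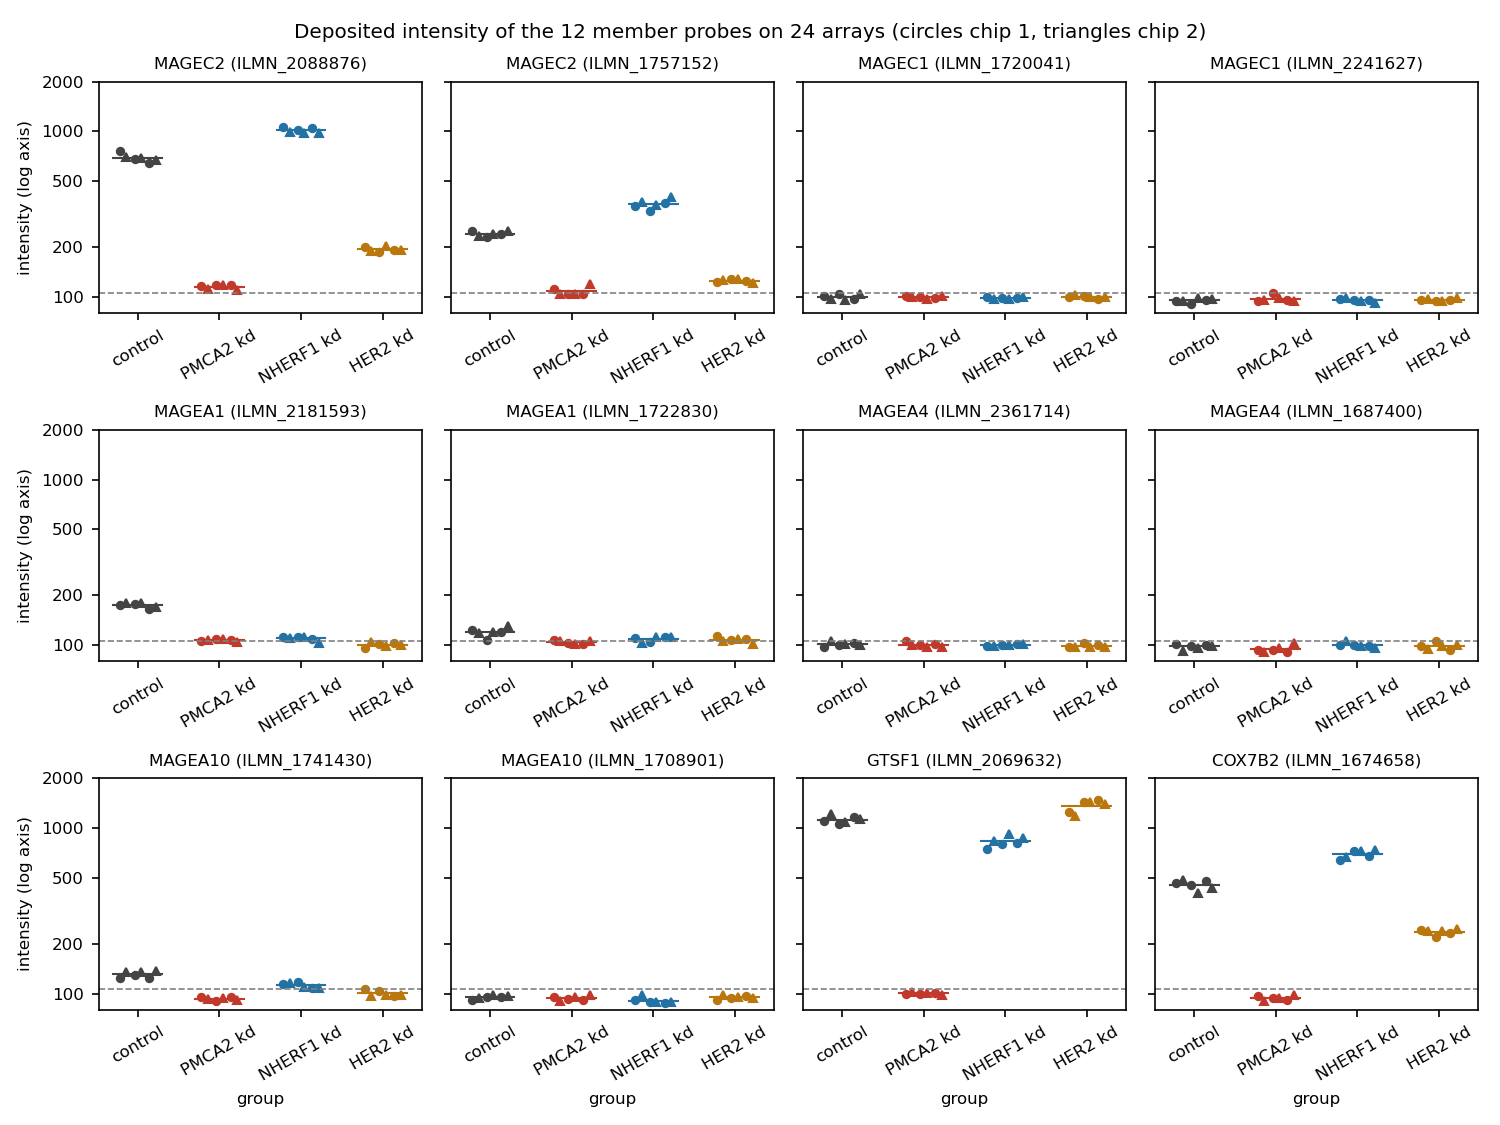
Intensity (log axis) of each array by group for the 12 probes of the 7 genes, with circles for chip 1, triangles for chip 2, a short bar at the group mean and the floor as a dashed line. GTSF1 and COX7B2 are below the floor in the PMCA2 knockdown, with GTSF1 medians of 100.2 there and 1109.6 in control, while MAGEC1 is at background in all 4 groups.

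The 5 tested genes can be read against all 12468 tested genes as a description, since they were picked from these contrasts. Between the PMCA2 knockdown and control all 5 were called lower, with no overlap between groups, in a comparison where 33% of genes were called lower and 24.3% were lower without overlap, and their median log2 difference was -4.16 beside 0.002 over all genes. In the NHERF1 knockdown 2 were called higher (MAGEC2 and COX7B2; background 35.7%) and 3 lower (MAGEA1, MAGEA10 and GTSF1; background 30.9%), with a median of -0.48 beside 0.02. In the HER2 knockdown 1 was called higher (GTSF1; background 35.3%) and 4 lower (background 31.8%), with a median of -1.27 beside 0.02. Groups did not overlap for 2 higher genes (background 26.7%) and 3 lower genes (background 23.3%) in the NHERF1 knockdown, and for 4 lower genes in the HER2 knockdown (background 23.9%). Since the choice of the genes used these contrasts, nothing is read from these counts.

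Between knockdowns the same limits apply. Compared with the HER2 knockdown, 3 were called lower in the PMCA2 knockdown (MAGEC2, GTSF1 and COX7B2; background 28.8%) and 1, MAGEA1, higher (26.4%), with a log2 of 0.24 on its brighter and -0.16 on its dimmer probe. Compared with the NHERF1 knockdown, 4 were called lower in the PMCA2 knockdown (30%) and none higher, where limma called 27.3% of all genes higher, and MAGEA1 differed by a log2 of -0.15 ± 0.07. In the NHERF1 knockdown compared with the HER2 knockdown 4 were called higher (26.8%) and 1, GTSF1, lower (25.4%). On chip 1 and chip 2 MAGEC2 differed from control by -4.09 and -4.23 in the PMCA2 knockdown, GTSF1 by -5.57 and -5.63, and COX7B2 by -4.31 and -4.21. GTSF1 and COX7B2 were below the floor on all arrays of the PMCA2 knockdown. Their sizes there are not measured values, and their likeness between chips partly reflects a shared background level. In the HER2 knockdown MAGEC2 differed by -2.46 and -2.41 and COX7B2 by -1.35 and -1.18, and in the NHERF1 knockdown they differed by 0.65 and 0.58 and by 0.65 and 0.80.

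**Figure D2:**
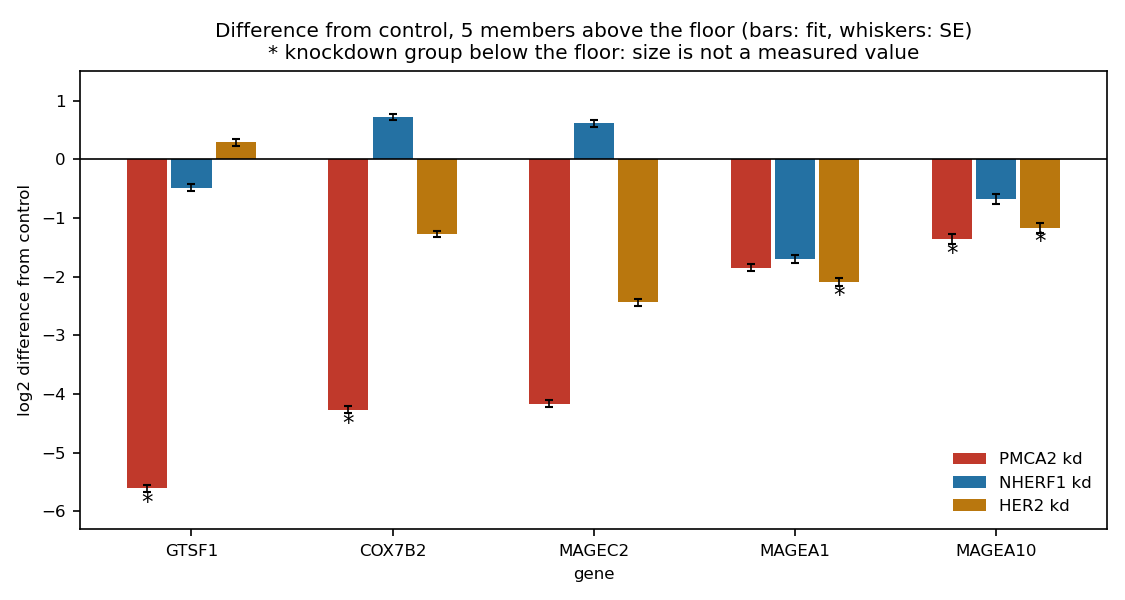
Log2 difference from control for the 5 tested genes in each knockdown, with standard errors from limma. GTSF1, COX7B2 and MAGEC2 lie furthest below control in the PMCA2 knockdown, and MAGEC2 and COX7B2 lie above control in the NHERF1 knockdown. An asterisk marks a knockdown group taken as below the floor, where the size is not a measured value.

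Over the 24 arrays the log2 values of MAGEC2 and COX7B2 had a Pearson r of 0.96, MAGEA1 and MAGEA10 one of 0.89 and GTSF1 and COX7B2 one of 0.88, while MAGEA1 and GTSF1 had 0.30 and MAGEA1 and COX7B2 0.40. The arrays fall in 4 groups, so these values mostly describe 4 group means and are given without a p. The gene whose pattern was most like that of MAGEC2 among 12463 others was RTF2 (r 0.99), a replication fork protein, followed by the skeletal actin gene ACTA1 (0.99) and TEAD2 (0.99), a partner of YAP in the Hippo pathway. For MAGEA1 they were TP53INP2, UCP2 and HSPA12A (0.99 each), and TP53INP2 had medians of 875 in control and 161, 164 and 146 after depletion of PMCA2, NHERF1 and HER2. For MAGEA10 they were CGRRF1 (0.97), SELENOM (0.97) and BAD (0.96), for GTSF1 RFX5 (0.98), RAB3IP (0.98) and UST (0.97), and for COX7B2 TCEAL3 (0.98), ACTA1 (0.98) and LINC00221 (0.97).

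The genes that lie next to them in the RefSeq order were mostly at background, and those that were tested did not share a direction. Next to GTSF1 on chromosome 12, ITGA5, an integrin subunit that binds fibronectin, rose in the PMCA2 (log2 1.73, limma adjusted p 9.96e-18) and NHERF1 (log2 1.9, p 1.35e-18) knockdowns and was not called in the HER2 knockdown (log2 -0.14, adjusted p 0.0855). ZNF385A, also next to it, fell in all 3 (log2 -1.63, -1.32 and -1.49, adjusted p 1.48e-14, 1.49e-12 and 9.87e-14). Next to COX7B2 on chromosome 4, GABRA2, a GABA receptor subunit, rose in the HER2 knockdown (log2 2.48, adjusted p 3.32e-22). Its median was 92 in control, below the floor, and 189.4 in the HER2 knockdown. In the NHERF1 knockdown it was called higher (log2 0.33, adjusted p 8.21e-05), but its median of 103.6 there was also below the floor. It was not called in the PMCA2 knockdown (log2 0.13, adjusted p 0.0776). GABRB1, another subunit, had a median of 89.9 in control, below the floor, and rose in all 3 (log2 0.75, 0.73 and 0.69, adjusted p 4.35e-08, 6.76e-08 and 1.86e-07). Next to MAGEA4, GABRE rose in the PMCA2 (log2 0.98) and NHERF1 (log2 0.99) knockdowns, and next to MAGEA1, ZNF275 rose in the same 2 knockdowns (log2 0.36 and 0.57). The median of ZNF275 in control, 102.9, and that of ZNF385A in the PMCA2 knockdown, 103.3, were below the floor. Where a group is below the floor, the log2 size is not a measured value.

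Other X-linked cancer-testis genes were called in each direction. The counts of this and the following lists can be read against all tested genes, of which limma called 33.8%, 35.7% and 35.3% higher and 33%, 30.9% and 31.8% lower in the PMCA2, NHERF1 and HER2 knockdown. Of 29 tested X-linked genes, 8 rose (27.6%) and 14 fell (48.3%) in the PMCA2 knockdown, 8 (27.6%) and 13 (44.8%) in the NHERF1 knockdown, and 5 (17.2%) and 14 (48.3%) in the HER2 knockdown. Their median log2 differences were -0.17, -0.10 and -0.19, beside 0.002, 0.02 and 0.02 over all genes. CT45A3 had a median of 303 in the PMCA2 knockdown beside 107 in control, 100.7 in the NHERF1 and 99.8 in the HER2 knockdown, and was 8.61-fold above control (limma adjusted p 4.95e-21). It was also at least 8.84-fold above the NHERF1 knockdown (adjusted p 5.81e-21) and at least 8.75-fold above the HER2 knockdown (adjusted p 4.77e-21). A second CT45A3 probe gave a log2 of 1.77 in place of 3.11 against control, and a further probe gave 2.73. The CT45 genes are near-identical copies that may share probes, so which copy was read is uncertain. Such copies, CT45A3 and CT45A5 among them, were counted as separate genes in the 29, so these counts are not of independent genes.

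PAGE4, an X-linked gene expressed in prostate and placenta, read 97.6 in control and 300.6 in the NHERF1 knockdown, at least 8.75-fold higher (adjusted p 8.48e-25), and at least 2.07-fold higher in the HER2 knockdown (adjusted p 1.43e-15). XAGE3, a placental gene, was 6.27-fold higher in the NHERF1 knockdown (adjusted p 7.14e-19) and 2.29-fold higher in the PMCA2 knockdown (adjusted p 2.6e-11). PAGE5 fell from 238 in control to 102 in the PMCA2 knockdown (at least 6.11-fold, adjusted p 3.85e-23) and 97.8 in the HER2 knockdown (at least 6.13-fold, adjusted p 1.56e-23). PAGE2B fell in the same 2 knockdowns, by at least 4.25-fold and at least 4.28-fold. In the NHERF1 knockdown both were lower than control, PAGE5 by a log2 of -0.60 and PAGE2B by -1.36. PAGE2 and PAGE2B are near-identical and may share probes.

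**Figure D3:**
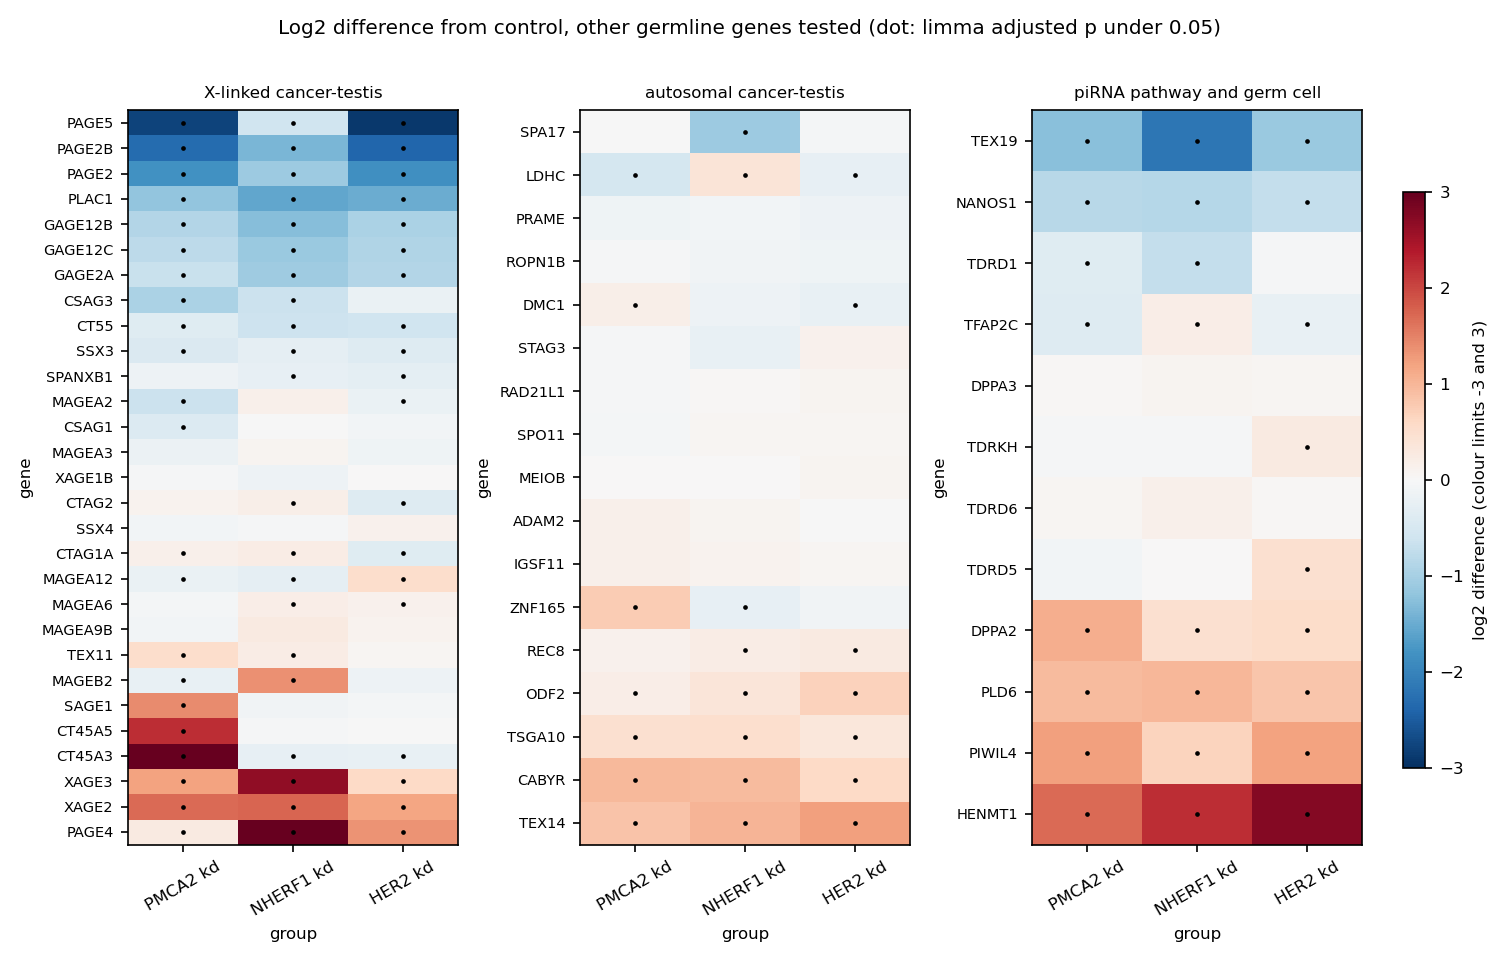
Log2 differences from control in the 3 knockdowns for the tested genes of 3 germline gene lists, as colour from -3 to 3, with a dot where the limma adjusted p was below 0.05. CT45A3 is high in the PMCA2 knockdown (log2 3.11), and PAGE4 and XAGE3 in the NHERF1 knockdown.

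PLAC1, a placental gene on the X chromosome that is counted with the X-linked genes, fell in all 3 knockdowns (2.27-, 2.93- and 2.82-fold). Of 17 tested autosomal cancer-testis genes, 6 rose (35.3%) and 1 fell (5.88%) in the PMCA2 knockdown, 6 (35.3%) and 2 (11.8%) in the NHERF1 knockdown and 5 (29.4%) and 2 (11.8%) in the HER2 knockdown. Among them SPA17 fell in the NHERF1 knockdown (log2 -1.09, adjusted p 7.92e-17), and TEX14, a germ cell bridge protein, rose by at least 1.35-, 1.52- and 1.74-fold. Of 12 tested piRNA pathway and germ cell genes, which include PIWI proteins and other factors of the pathway in which GTSF1 acts, 4 rose and 4 fell in the PMCA2 knockdown (33.3% each), 5 (41.7%) and 3 (25%) in the NHERF1 knockdown and 6 (50%) and 3 (25%) in the HER2 knockdown. HENMT1, which methylates the ends of piRNAs, rose 3.26-fold, 4.63-fold and 6.71-fold in the PMCA2, NHERF1 and HER2 knockdowns (adjusted p 5.09e-20, 1.29e-22 and 9.41e-25). TEX19, a germ cell gene, fell in all 3 (log2 -1.25, -2.17 and -1.11, adjusted p 9.6e-17, 3.18e-22 and 1.52e-15). PIWIL4, a PIWI protein, rose 2.34-fold, 1.59-fold and 2.31-fold, PLD6, a piRNA-processing enzyme of mitochondria, rose 1.92-fold, 2.00-fold and 1.77-fold, and DPPA2 rose by at least 1.78-, 1.18- and 1.22-fold.

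Of 36 tested genes of DNA methylation and germline gene silencing, 17 rose (47.2%) and 8 fell (22.2%) in the PMCA2 knockdown, 24 (66.7%) and 3 (8.33%) in the NHERF1 knockdown and 16 (44.4%) and 7 (19.4%) in the HER2 knockdown, with median log2 differences of 0.14, 0.25 and 0.15. DNMT3B, a de novo DNA methyltransferase, rose from 183 in control to 572, 530.2 and 427 after depletion of PMCA2, NHERF1 and HER2 (4.82-, 4.35- and 3.28-fold, adjusted p 1.47e-21, 6.79e-21 and 9.18e-19). On the log2 scale this was 2.27, 2.12 and 1.71. A second probe gave 1.24, 0.88 and 1.07, and a further probe 2.14, 1.89 and 1.52. TET1, which oxidises methylated cytosine, rose by at least 1.41-, 2.41- and 2.11-fold, with 0.06, 0.47 and 0.26 on the log2 scale for a second probe. A further TET1 probe gave 0.44, 0.98 and 1.04. Of 17 tested somatic MAGE genes and MAGE partners, 7 rose (41.2%) and 5 fell (29.4%) in the PMCA2 knockdown, 8 (47.1%) and 4 (23.5%) in the NHERF1 knockdown and 5 (29.4%) and 6 (35.3%) in the HER2 knockdown. PRKAA1, the AMPK catalytic subunit that MAGEA3 and MAGEA6 mark for breakdown with TRIM28, fell in all 3, with the lowest median, 397, in the PMCA2 knockdown (log2 -1.31, adjusted p 4.8e-17). TRIM28, named here after its values were seen, fell in the PMCA2 knockdown (log2 -0.40, adjusted p 1.97e-07) and rose in the NHERF1 (log2 0.69) and HER2 (log2 0.34) knockdowns.

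For COX7B2, the comparison is with 11 tested genes listed as somatic cytochrome c oxidase subunits, of which COX7A2L is a subunit-like gene. In the PMCA2 knockdown 2 rose (18.2%) and 7 fell (63.6%), in the NHERF1 knockdown 0 rose and 9 fell (81.8%), and in the HER2 knockdown 1 rose (9.09%) and 7 fell (63.6%), where over all tested genes 33.8%, 35.7% and 35.3% were called higher and 33%, 30.9% and 31.8% lower. The genes that rose were COX8A and COX7A2L in the PMCA2 knockdown and COX7A2L in the HER2 knockdown. No gene of the list reached 2-fold, and the median differences were -0.17, -0.19 and -0.29. COX7B, the somatic relative, named after its values were seen, fell in all 3 (log2 -0.17, -0.40 and -0.22, adjusted p 0.0329, 1.6e-05 and 0.00847).

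Markers of cell types were read on the same arrays. Germ cell markers were at background apart from TDRD1: 9 of 10 passed the floor on no control array, and in each group only TDRD1 passed on all 6, with medians of 308 in control, 259.5 in the PMCA2, 215.5 in the NHERF1 and 295 in the HER2 knockdown. DDX4, MAEL, PIWIL2, SYCP1 and PRM1 passed on no array of any group. Markers of luminal epithelium, the cell type of this line, were present in control cells, where 15 of 18 passed on all arrays and the cell adhesion gene CDH1 was at background with a median of 95.1. ESR1 and GATA3 did not pass on all control arrays either, with medians of 101 and 104.5, below the floor. Their summed intensity above median background was 42938 to 46733 in control, 21443 to 22728 in the PMCA2, 18104 to 18718 in the NHERF1 and 19660 to 21209 in the HER2 knockdown. Of 16 tested, 13 fell in each knockdown, and 2, 3 and 3 rose. Those that rose, named after their values were seen, were GATA3 and KRT8 in every knockdown and KRT18 in the NHERF1 and HER2 knockdowns. GATA3 rose by at least 4.54-, 2.94- and 4.08-fold in the PMCA2, NHERF1 and HER2 knockdowns, and KRT8 by log2 values of 0.29, 0.24 and 0.75.

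Trophoblast markers moved with the groups too. Their summed intensity was 2223 to 2476 in control, 10788 to 11147 in the PMCA2 knockdown, 6170 to 6753 in the NHERF1 and 5585 to 5967 in the HER2 knockdown, and of 15 tested 14, 8 and 9 rose and 0, 6 and 5 fell. The list shares PAGE4 and XAGE2 with the cancer-testis list. Basal and mesenchymal markers summed to 354 to 408 in control and 2529 to 2722 in the NHERF1 knockdown, with 490 to 557 and 940 to 1066 in the PMCA2 and HER2 knockdowns. Of 13 with a probe, 6 passed the floor on all arrays of the NHERF1 knockdown. The basal keratins KRT5 and KRT14 did not, with medians of 101.7 and 97.5 there. The part of these markers in the values of the 7 genes was not tested.

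**Figure D4:**
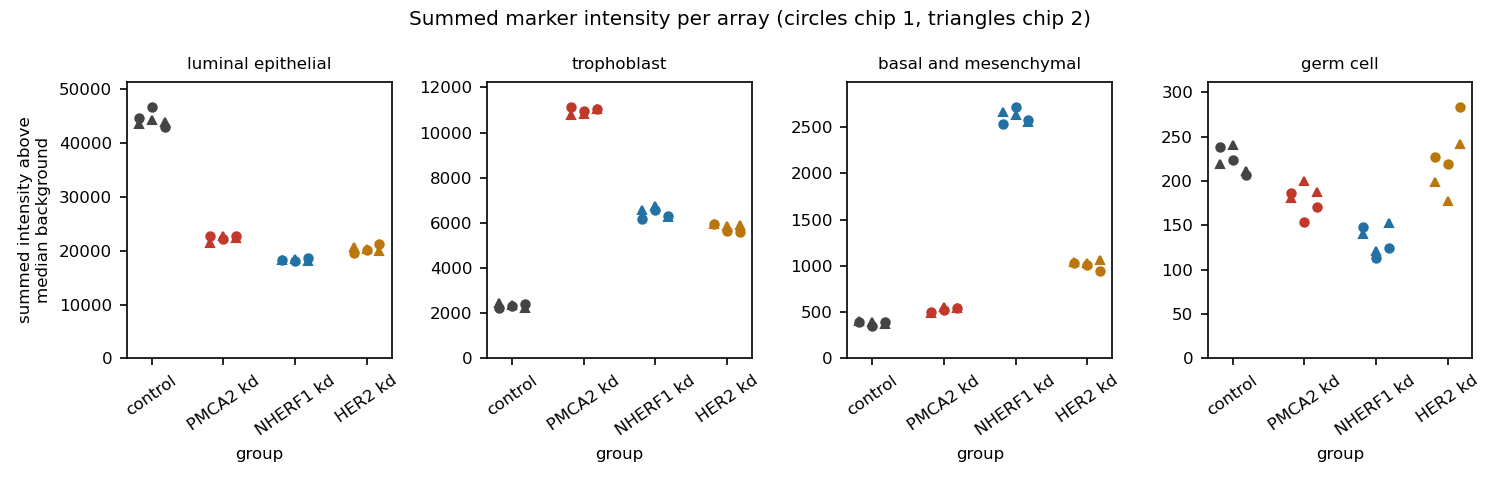
Summed intensity above median background of cell type markers on each array, by group and chip. Luminal markers sum to 42938 to 46733 in control and less in all knockdowns, and trophoblast markers are highest in the PMCA2 knockdown.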

How the data were processed

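RNA of 24 SKBR3 samples was read on Illumina arrays. The authors deposited intensities on a linear scale, already normalized: the sorted arrays lie within 0.406% of each other at every rank, with a smallest value of 81.6. The method is not given in the sources used here. A second deposited table was left out: the names of its 24 signal columns could not be tied to samples. The design assumed detection p-values; the floor from olfactory receptor probes replaced them. Probes were named through the platform annotation and RefSeq GRCh38.p14: 30113 probes have 1 symbol, 30074 of them matched.

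The deposited intensities were corrected by normexp (limma 3.58.1, R 4.3.3) with 433 olfactory probes as negative controls and an offset of 16, followed by quantile normalization and log2 of the intensities. The brightest probe stood for each gene. limma was fitted on all 24 arrays with 1 mean per group, and p-values were adjusted by Benjamini-Hochberg. The fit was tested on simulated data. At-least folds set a dim group, array by array, to the higher of its own signal and the lowest signal above the floor. They were taken on the background-subtracted scale and are not bounds for other ways of processing.

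The genes and lists were chosen with earlier results of these data known. PLAC1 was listed as autosomal but lies on the X chromosome in the RefSeq table, and it is counted there. Named genes are, per list, up to 5 with the largest change of at least 2-fold that passed the test; per gene, the 3 most alike and the nearest 2 RefSeq neighbours each side; and targets. Alternatives covered background correction, normalization, floor, probe choice, blocks, chips and single arrays. Replicate numbers were checked for pairing: same-number deviations correlated between -0.057 and 0.111, so they were taken not to pair samples. Any 2 arrays differed at 99.9% of values or more.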

Additional observations from a re-analysis of the deposited data

Results flagged for a closer look

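For MAGEA1 in the NHERF1 knockdown, replicate 6 read 103.4 on the brighter probe, apart from the other 5 arrays of the group, of which the nearest read 109.9 and the farthest 112.4. Its gap to the nearest array was 0.717 of the group's range. Over the 12 probes and 4 groups examined, chance alone sets apart about 1 in 20 groups. Without this array the log2 difference of MAGEA1 between the PMCA2 and NHERF1 knockdowns was -0.21 in place of -0.15.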

How the results depend on the processing

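No member difference reversed under the alternatives run, which included the mean over a gene's probes. On its dimmer probe alone, however, MAGEA1 between the PMCA2 and HER2 knockdowns was -0.16 in place of 0.24 on the brighter probe. The genes above the floor on all arrays of the PMCA2 knockdown numbered 1 with the floor at the 95th percentile of the background probes, 2 at the 90th and 0 at the 99th. In the NHERF1 knockdown they numbered 4 at the 95th and 90th and 3 at the 99th, without MAGEA10. MAGEA1 (PMCA2 against the HER2 and NHERF1 knockdowns) and MAGEA10 (PMCA2 against the HER2 knockdown), near background, crossed the threshold in 14 recomputed values; the cause was not tested. Among these, MAGEA1 between the PMCA2 and NHERF1 knockdowns moved from -0.15 to between -0.21 and -0.16 without PMCA2 replicate 2 or 5 or NHERF1 replicate 6, and MAGEA10 between the PMCA2 and HER2 knockdowns from -0.19 to as low as -0.215 without HER2 replicate 3, 4 or 6. With the replicate block, 8392, 8333 and 8390 genes were called in the PMCA2, NHERF1 and HER2 knockdowns against control, in place of 8334, 8302 and 8364, and 9 of the 24 arrays correlated best with an array of their own number. Leaving out single arrays gave 8186 to 8241, 8126 to 8202 and 8181 to 8250 calls. Signal over background limits MAGEC1, MAGEA4, MAGEA10 and the knockdown values of MAGEA1.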

Other observations

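Of 12 testis somatic cell markers 3 were tested. INHA, an inhibin subunit, rose 15.5-fold in the PMCA2 knockdown (limma adjusted p 3.25e-28) and 6.3-fold in the NHERF1 knockdown (adjusted p 2.79e-24). In the HER2 knockdown INHA rose 15.3-fold (adjusted p 3.97e-28). INHBB and SOX9 fell in all 3 (INHBB log2 -2.42, -2.17 and -1.89). Of 7 melanocyte markers 3 were tested, and PMEL, a melanosome protein, rose from a median of 115 in control to 355, 331 and 345 after depletion of PMCA2, NHERF1 and HER2 (adjusted p 5.25e-24, 1.45e-23 and 7.84e-24), while MITF fell in all 3. Of 8 leukocyte markers 5 were tested, and CD14 rose in all 3 knockdowns (log2 0.68, 2.10 and 0.56). CD68 rose in the PMCA2 knockdown (log2 0.32) and fell in the NHERF1 (log2 -0.17) and HER2 (log2 -0.25) knockdowns, and CD34, CD79A and LYZ were not called in any. Basal and mesenchymal markers, 7 tested, had 4, 5 and 5 called higher and 2, 0 and 0 lower, with median log2 differences of 0.28, 2.26 and 0.87.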
